A study of Mus musculus with 6 samples.

Results

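The sarcomeric myosin heavy chains are the motor proteins of the thick filament in striated muscle. They were taken as the 9 genes Myh1, Myh2, Myh3, Myh4, Myh6, Myh7, Myh7b, Myh8 and Myh13, measured by every array probe set whose platform annotation names one of them and no other gene. This gave 12 probe sets for 8 of the 9 genes, out of 18193 genes with a probe set of their own. Myh13, the myosin of extraocular muscle, had none and is not analysed here. Affymetrix arrays had been hybridised with RNA of whole quadriceps from male C57/BL6 mice aged 8 weeks. One group carried hSkeletal Actin -ERRg, a transgene that drives ERRγ, the orphan nuclear receptor of the gene Esrrg, from a skeletal actin promoter, active mainly in muscle fibres. The other group was wild-type. Each genotype had 3 arrays, titled as biological replicates, and the number of transgenic founder lines was not given in the sources used here.

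A muscle fibre is classed by the heavy chain it makes. In mouse limb muscle Myh7 marks slow type I fibres, Myh2 the fast oxidative type IIa, Myh1 the type IIx and Myh4 the fast glycolytic type IIb. These isoforms differ in how fast they split ATP, so that fibres with Myh4 shorten fastest and fibres with Myh7 slowest. Myh3 and Myh8 are the embryonic and perinatal isoforms, which adult limb fibres largely replace and regenerating fibres make again, while Myh6 is the fast isoform of the heart.

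The 6 arrays had the same 2% trimmed mean signal of 200 over their 45101 probe sets, and values below are MAS5 signals on a linear scale. Each signal can be compared between arrays for 1 probe set, but not between probe sets. The Esrrg probe set with the highest signal gave 14427, 13808 and 12697 on the transgenic arrays, against 71.6, 61.0 and 24.1 on the wild-type arrays, so this probe set matched the labels on every array. Differences were tested with limma on log2(signal + 16) over 27018 probe sets whose mean signal was above 37.7, with Benjamini-Hochberg adjustment and a threshold of 0.05. This called 3115 probe sets, 11.5% of those tested (6.37% higher and 5.16% lower in transgenic muscle). The other Esrrg probe sets, 1455267_at and 1457896_at, did not pass (limma adjusted p = 0.284 and 0.443). Skeletal muscle fibre markers (Acta1, Ckm, Ttn, Des, Tnnc2 and Mylpf) gave a summed signal of 95964 to 106613 on the transgenic arrays, against 84237 to 110854 on the wild-type arrays. Of these 6, 0 passed the test (limma, with 0 also at an unadjusted p under 0.05). Tnnc2 and Mylpf are fast-fibre genes and are also members of the fast-fibre list below. The 5 adipocyte markers measured of 7 listed summed to 12706 to 17366 on the transgenic arrays, against 13854, 11501 and 26420 on wild-type 1, 2 and 3, so that wild-type 3 stood apart. This array was also the lowest wild-type one at 9 of the 12 myosin probe sets (75%), against 38.6% of all tested probe sets. The 9 include the 2 Myh6 probe sets, which were too dim to be tested, and repeat probe sets of Myh1 and Myh4. The part of fat tissue in these low signals was not tested.

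Of the 12 myosin probe sets, 10 were bright enough to be tested and the 2 for Myh6 were not. In transgenic muscle 4 of the 10 were higher (Myh2 and the 3 for Myh1), 1 was lower (Myh8) and 5 did not pass. Over all tested probe sets 6.37% were called higher and 5.16% lower. The 3 for Myh1 are repeat readings of 1 gene. The genotypes had separate signal ranges at 6 of the 10 tested probe sets, and at 30.9% of all tested probe sets. Over all probe sets, tested or not, this was 6 of 12 for the myosins and 23.5% for the whole array. The same 5 passed when array 3 of each genotype was left out, with 4 higher and 1 lower. The whole-array count was less steady. Leaving out wild-type 1 gave 1709 probe sets, wild-type 2 gave 1876, transgenic 1 gave 1917 and transgenic 2 gave 2048, while in each of these fits at least 4 myosin probe sets were higher and 1 was lower.

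**Figure D1:**
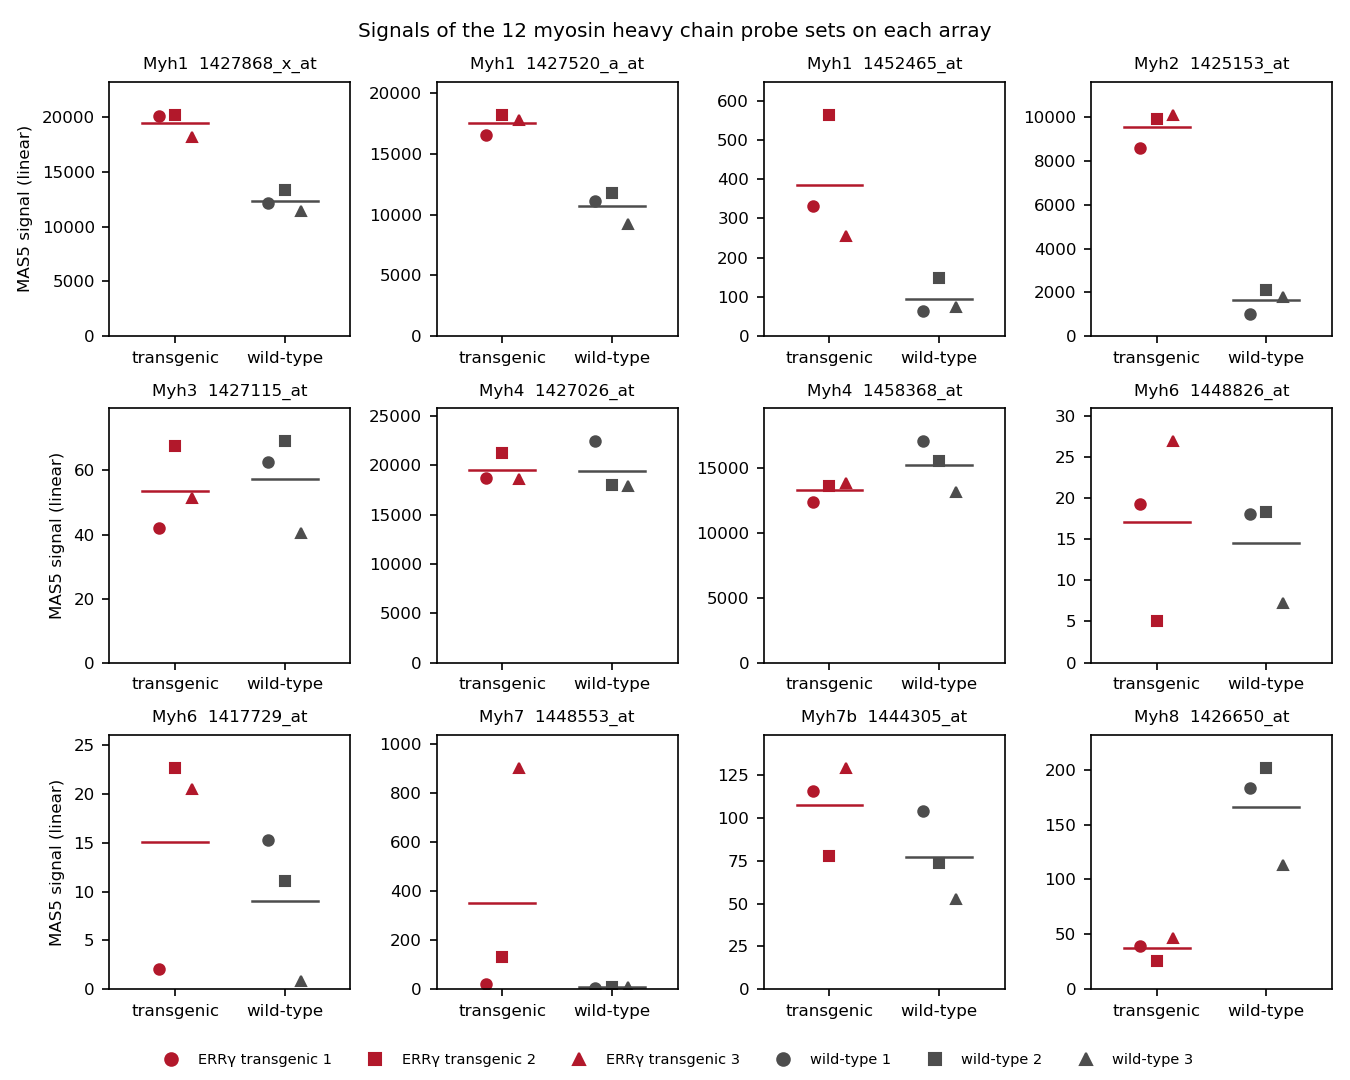
MAS5 signal (linear, each panel with its own scale from 0) of each of the 12 myosin heavy chain probe sets on the 3 transgenic and 3 wild-type arrays, with a bar at each genotype's mean. The genotypes separate for Myh1, Myh2, Myh7 and Myh8 and overlap for Myh3, Myh4, Myh6 and Myh7b, and the Myh7 signal of 900.8 on transgenic 3 stands far above all others of that probe set.

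Myh2, the IIa motor, showed the largest difference among the myosins that passed. Its probe set (1425153_at) gave 8593, 9922 and 10116 on the transgenic arrays, against 1023, 2084 and 1796 on the wild-type arrays. Every transgenic signal was more than 4 times the highest wild-type one. The mean was 9544 ± 829.4 in transgenic and 1634 ± 548.4 in wild-type muscle (SD, n = 3 each), a ratio of 5.84, and the log2 difference was 2.59 (SE 0.21, 95% interval 2.12 to 3.06, limma adjusted p = 5.65e-05). The transgenic arrays lay close together, with the highest 1.18 times the lowest, while the wild-type arrays spread 2.04-fold. The difference stayed between 2.29 and 2.80 in 17 alternative fits and passed in all of them. Whole muscle RNA cannot tell a larger number of IIa fibres from more Myh2 transcript in each fibre, and this holds for every isoform below.

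Myh1, the IIx motor, was read by 3 probe sets, and all of them rose. Whether these probe sets also read transcripts of Myh2 or Myh4 was not tested. The probe set with the highest signal (1427868_x_at) gave 20101, 20239 and 18225 on the transgenic arrays, against 12194, 13323 and 11412 on the wild-type arrays. A second (1427520_a_at) gave 16580, 18231 and 17755 on the transgenic arrays, against 11102, 11745 and 9208 on the wild-type arrays. The genotypes were well apart at both, with ratios of means of 1.59 and 1.64 and limma adjusted p of 0.00129 and 0.00167. The dimmest probe set (1452465_at) gave 331.9, 564.7 and 256.2 on the transgenic arrays, against 63.1, 147.1 and 74.1 on the wild-type arrays. Here the ratio was 4.05, with a log2 difference of 1.85 (SE 0.31, limma adjusted p = 0.00349), so that the size of the Myh1 rise depends on the probe set although its direction does not. The 2 brighter probe sets spread little within a genotype, at most 1.28-fold, while the dim one spread 2.20-fold in transgenic and 2.33-fold in wild-type muscle.

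Myh4, the IIb motor, was not called at either of its probe sets. The brighter (1427026_at) gave 18670, 21262 and 18624 on the transgenic arrays, against 22426, 17961 and 17940 on the wild-type arrays. The ranges overlapped, and the log2 difference of 0.01 had a 95% interval of -0.23 to 0.25 (limma adjusted p = 0.964). The dimmer (1458368_at) gave 12388, 13661 and 13888 on the transgenic arrays, against 17101, 15545 and 13180 on the wild-type arrays, a log2 difference of -0.19 (95% interval -0.43 to 0.05, limma adjusted p = 0.302). The direction at the brighter probe set turned to -0.14 when arrays were scaled to a common median, a step that lowered the median difference over all tested probe sets by 0.137, and the dimmer one passed at -0.31 after quantile normalization (limma adjusted p = 0.0300).

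Ratios of bright signals taken within an array hardly depend on its scaling, and they set the change of one isoform against that of another. The log2 ratio of Myh2 to Myh4 averaged -1.03 ± 0.13 on the transgenic arrays and -3.61 ± 0.72 on the wild-type arrays (SD, n = 3 each), so the ratio was 5.98-fold higher in transgenic muscle. The ratio of Myh2 to Myh1 was 3.80-fold higher and that of Myh1 to Myh4 1.57-fold higher. In each of the 3 ratios all transgenic arrays lay above all wild-type arrays, and the exact two-sided permutation test gave p = 0.1, the smallest value that 3 against 3 arrays can reach. With the mean over all probe sets of each gene, the differences were 1.51 for Myh2 to Myh1 and 1.17 for Myh1 to Myh4 on the log2 scale, against 1.93 and 0.65 with the brightest probe set. Each ratio takes its probe sets to read only the gene they are named for, and cross-hybridisation between these genes was not tested.

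**Figure D2:**
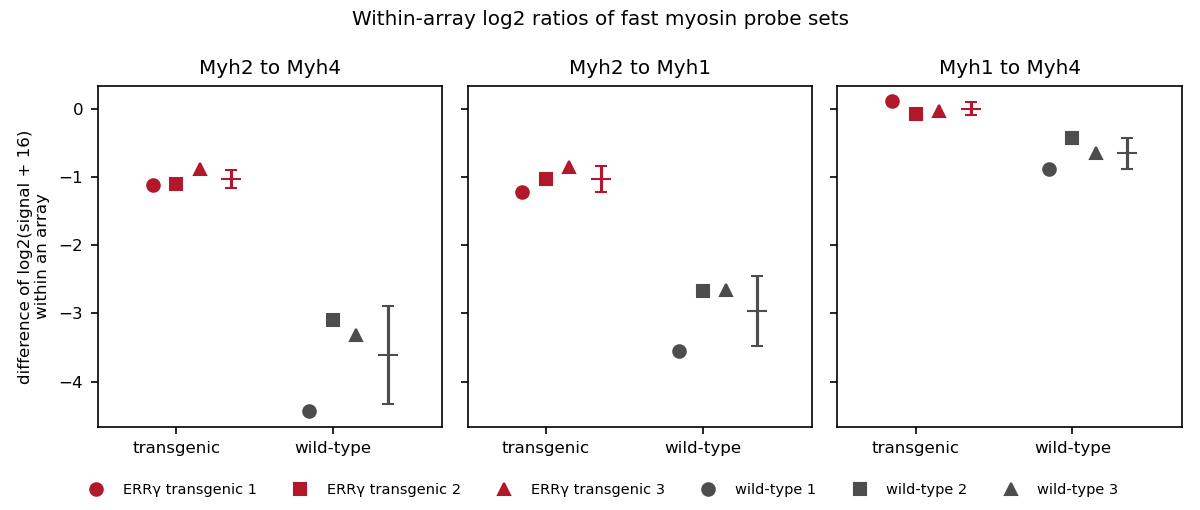
Difference of log2(signal + 16) between the brightest probe sets of 2 genes within each array, for Myh2 to Myh4, Myh2 to Myh1 and Myh1 to Myh4, with mean ± SD (n = 3) beside the points. The transgenic arrays lie above the wild-type arrays in each panel, by 2.58, 1.93 and 0.65 on average. The height of a panel has no meaning of its own, since it also depends on the probes.

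Myh8, the perinatal isoform, was the one myosin that fell. Its probe set (1426650_at) gave 39.3, 25.8 and 46.8 on the transgenic arrays, against 183.8, 201.7 and 112.9 on the wild-type arrays. The lowest wild-type signal was still more than 2 times the highest transgenic one. The mean was 37.3 ± 10.6 in transgenic and 166.1 ± 47.0 in wild-type muscle (SD, n = 3 each), and the log2 difference was -1.76 (SE 0.26, limma adjusted p = 0.00160). The transgenic mean was below the filter level of 37.7, so the probe set was tested through its wild-type signal, and how far below the wild-type level the transgenic one lies is not firmly measured. The difference ran from -2.12 to -1.17 over the 17 alternative fits and passed in each. Without array 3 of each genotype it was -2.12 (limma adjusted p = 0.00186).

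Myh3, the embryonic isoform, gave 42.1, 67.5 and 51.3 on the transgenic arrays, against 62.7, 69.1 and 40.6 on the wild-type arrays. Its ranges overlapped almost fully, with a log2 difference of -0.07 (95% interval -0.67 to 0.53, limma adjusted p = 0.900). Genes of regenerating and developing muscle were set beside Myh3 and Myh8, since both isoforms return in regeneration. Of 20 listed genes 15 were tested. Of these, 1 rose and 0 fell (limma, with 3 higher and 3 lower at an unadjusted p under 0.05). The median log2 difference was -0.03, against 0.03 over all 12537 genes tested, of which 13.4% were called. The riser was Chrna1, the α subunit of the muscle acetylcholine receptor, at 454.9, 442.5 and 633.5 on the transgenic arrays, against 199.2, 208.8 and 201.8 on the wild-type arrays. Without transgenic 1, 2 members of this list rose. The satellite cell factor Pax7 gave 17.5, 17.1 and 38.4 on the transgenic arrays, against 47.6, 66.5 and 44.0 on the wild-type arrays, and did not pass (limma adjusted p = 0.171).

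A group of 6 myosin genes lies side by side on chromosome 11. In the RefSeq annotation of assembly GRCm38.p6 their order is Myh3, Myh2, Myh1, Myh4, Myh8 and Myh13, and 2 long non-coding RNA genes with a probe set of their own lie among them, chosen here by position after their values were seen. The first, 2310065F04Rik, which RefSeq also lists as linc-Myh, lies between Myh3 and Myh2. It gave 830.0, 869.6 and 843.6 on the transgenic arrays, against 502.8, 538.7 and 462.1 on the wild-type arrays, a rise of 0.74 (SE 0.11, limma adjusted p = 0.00176). The second, Myhas, lies between Myh1 and Myh4 on the opposite strand, with its start next to that of Myh4 and its end over that of Myh1. Myhas gave 301.6, 418.7 and 275.8 on the transgenic arrays, against 1578, 1031 and 1924 on the wild-type arrays, and fell by 2.11 (SE 0.22, limma adjusted p = 0.000220). Its highest transgenic signal was less than the lowest wild-type one, with wild-type means 4.55 times higher.

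Along this stretch the direction was not uniform, since linc-Myh, Myh2 and Myh1 were higher, Myhas was lower, Myh4 was not called and Myh8 was lower in transgenic muscle. Sco1, a cytochrome oxidase assembly gene and the next gene before Myh3, gave 81.2, 90.0 and 104.7 on the transgenic arrays, against 69.5, 66.1 and 85.8 on the wild-type arrays, and did not pass (limma adjusted p = 0.441). The Myhas probe set and the brightest Myh1 probe set were designed from the same sequence record, yet they moved in opposite directions. Where in the transcripts the probes lie was not analysed here. Transcripts of Myh1, Myh2 and Myh4 are alike in sequence, and cross-hybridisation between them was not tested.

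**Figure D3:**
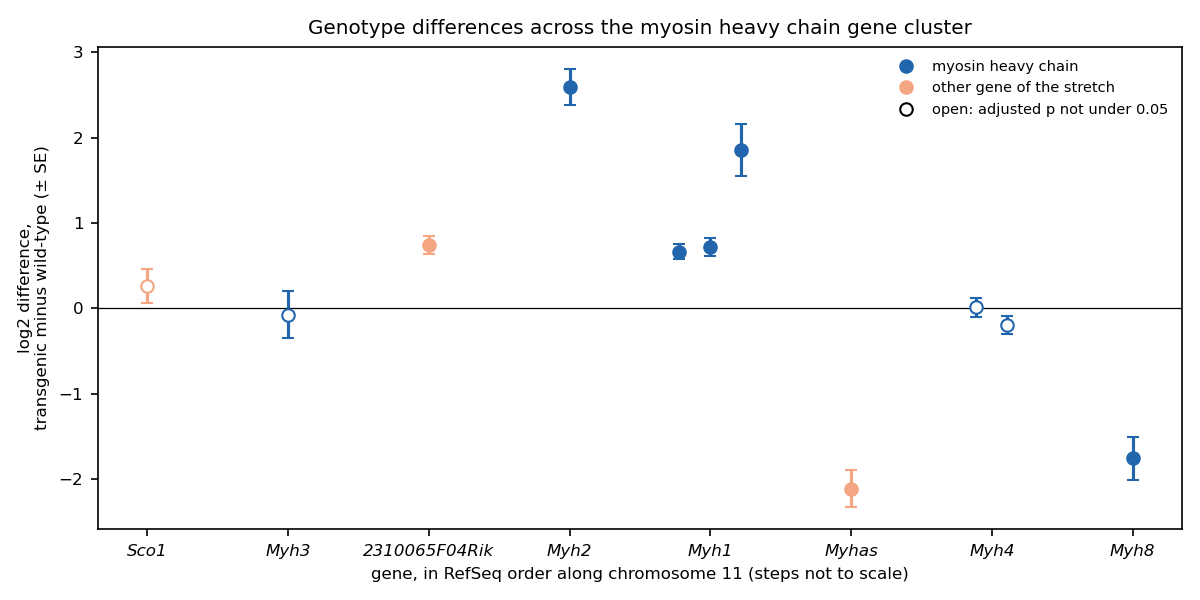
Log2 difference, transgenic minus wild-type, ± SE for each tested probe set of the genes of the chromosome 11 stretch, in RefSeq order with steps not to scale. Filled points passed at an adjusted p under 0.05. Myh2 at 2.59 and Myhas at -2.11 mark the range, with Myh4 and Myh3 near 0.

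The starts of 4 of these genes share sequence. In the 250 bases before the RefSeq start of Myh2, Myh1, Myh4 and Myh8, the longest run of letters common to all 4 was TTCTAATTATATCC. Among 32851 such windows of mouse genes, 4 (0.0122%) held it on either strand, and they were those of these 4 genes. The run was picked from these 4 windows, so their matches follow from the choice. Few windows would hold any given run of this length, so the share does not measure how specific it is. Myh3 and Myh13 of the same group were not used in picking it. The run was thus found before genes that rose (Myh2 and Myh1), that fell (Myh8) and that were not called (Myh4). A match to the MEF2 consensus was found before it in the windows of Myh1, Myh4 and Myh8 and not in that of Myh2, while 2.92% of all windows held one. Shown are 100 bases of each, 5′ to 3′ on the plus strand of GRCm38.p6, from RefSeq, with the shared run in capitals.
Myh2, chr11:67170842-67170941: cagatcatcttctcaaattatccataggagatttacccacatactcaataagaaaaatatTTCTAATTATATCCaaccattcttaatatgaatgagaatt
Myh1, chr11:67199882-67199981: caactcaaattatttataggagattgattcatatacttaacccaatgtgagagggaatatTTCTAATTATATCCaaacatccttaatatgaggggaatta
Myh4, chr11:67237594-67237693: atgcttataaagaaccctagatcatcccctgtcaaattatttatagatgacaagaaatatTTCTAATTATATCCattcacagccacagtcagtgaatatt
Myh8, chr11:67277010-67277109: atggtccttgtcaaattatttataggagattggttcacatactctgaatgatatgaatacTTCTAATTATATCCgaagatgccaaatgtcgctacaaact

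The ERR receptors bind a DNA element with the letters TNAAGGTCA. It was searched on both strands in the 10 windows of the 9 myosin genes (Myh7 has 2 starts) and was found in 1 of them, that of Myh7b, while 1.14% of all windows held it. The Myh7b match lies 46 to 38 bases before the start. It is shown in capitals within 100 bases of the plus strand, where it reads as the reverse complement. No match in the other windows says only that these letters are not in those 250 bases.
Myh7b, chr2:155611137-155611236: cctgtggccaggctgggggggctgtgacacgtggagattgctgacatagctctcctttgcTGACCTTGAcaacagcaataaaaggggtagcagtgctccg

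Myh7b, a relative of the slow isoforms that carries a microRNA gene in an intron, gave 116.0, 77.6 and 129.2 on the transgenic arrays, against 104.3, 73.8 and 52.7 on the wild-type arrays. The ranges overlapped, and the log2 difference of 0.42 (SE 0.25, 95% interval -0.14 to 0.99) did not pass (limma adjusted p = 0.331). In 17 alternative fits of this probe set the limma adjusted p ran from 0.198 to 0.863.

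Myh7, the slow type I motor, differed between the transgenic arrays more than any other tested myosin probe set. Its probe set (1448553_at) gave 21.4, 129.1 and 900.8 on transgenic 1, 2 and 3, against 5.4, 9.6 and 9.7 on the wild-type arrays. All transgenic signals were above all wild-type ones, but they were far apart from each other, and that of transgenic 1 was below the filter level of 37.7. The log2 difference was 2.82 (SE 0.86) and missed the threshold (limma adjusted p = 0.0605). The difference was past it in 3 of its 16 alternative fits. It passed when transgenic 1 was left out (3.92, limma adjusted p = 0.00784) and with 1 unit added in place of 16 (3.94, limma adjusted p = 0.0419). It also passed with same-numbered arrays blocked together (2.82, limma adjusted p = 0.0243), a pairing that the labels do not state. Without transgenic 3 the mean signal was below the filter, so no test was made. Without array 3 of each genotype the difference was 1.65 (limma adjusted p = 0.183). The probe set was tested at all because of its signal in transgenic muscle, since every wild-type signal was below 37.7.

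The genes whose profile over the 6 arrays was closest to that of Myh7 were Myl3, Myl2 and Tnnt1. Closeness was measured as the root mean square difference of centred log2(signal + 16) values, which was 0.46, 0.63 and 0.67. Myl3 and Myl2 are the light chains of slow and ventricular myosin, and Tnnt1 is slow troponin T. Myl3 gave 91.1, 243.0 and 1478 on transgenic 1, 2 and 3, against 59.7, 48.0 and 81.9 on the wild-type arrays, and did not pass (limma adjusted p = 0.0795). Tnnt1 gave 58.6, 102.0 and 464.9 on transgenic 1, 2 and 3, against 19.6, 17.6 and 4.5 on the wild-type arrays. Transgenic 3 was again far above the others. Tnnt1 passed (limma adjusted p = 0.0187), but it was tested through its transgenic signal, since every wild-type one was below 37.7. For Myh2 the closest genes were Il15, a cytokine made by muscle, Ldhb, the heart form of lactate dehydrogenase, and Homer2, a scaffold protein, at 0.11, 0.24 and 0.28. Il15 gave 590.1, 686.1 and 662.5 on the transgenic arrays, against 44.7, 107.4 and 97.9 on the wild-type arrays. Ldhb gave 1870, 2155 and 2037 on the transgenic arrays, against 303.3, 465.7 and 545.8 on the wild-type arrays. Since these genes were chosen by their values on the same 6 arrays, their likeness to Myh2 or Myh7 is a description.

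**Figure D4:**
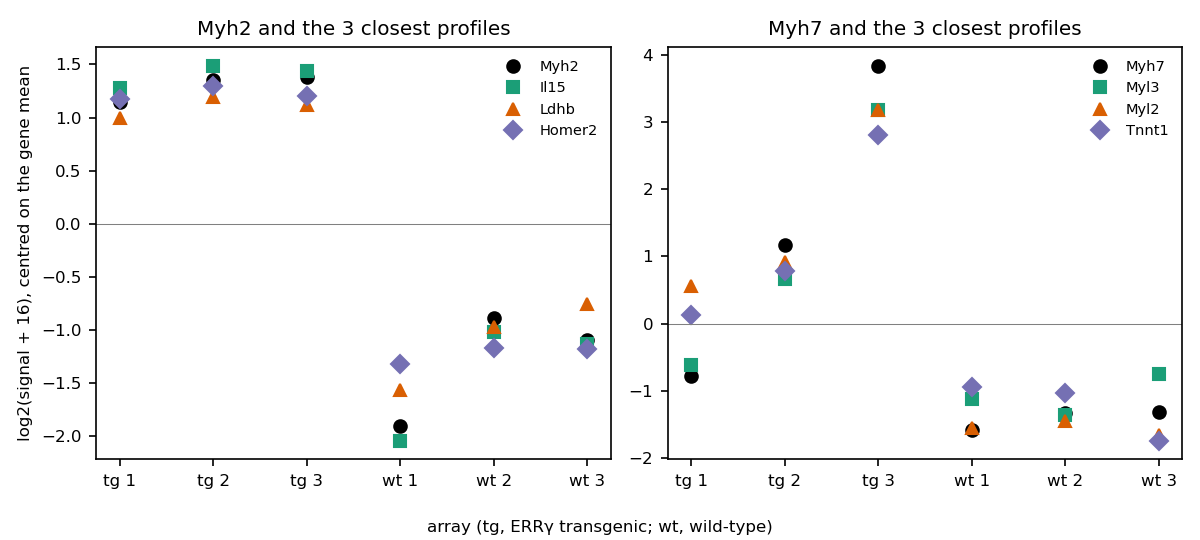
Log2(signal + 16), centred on each gene's mean, on every array for Myh2 with its 3 closest genes and for Myh7 with its 3 closest genes. The transgenic arrays are level for Myh2, Il15, Ldhb and Homer2, whereas Myh7, Myl3, Myl2 and Tnnt1 are highest on transgenic 3.

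The same array stood out over the slow-fibre contractile list. Of 14 listed genes 13 were tested, of which 7 rose and 0 fell (limma, with 10 higher and 0 lower at an unadjusted p under 0.05). Their median log2 difference was 2.10, while 13.4% of all genes were called (7.64% higher, 5.75% lower). Transgenic 3 was the highest transgenic array at 9 of the 13, against 30.4% of all tested genes. Tnnt1, among the 7 that rose, was tested through its transgenic signal. The largest rises were those of Ankrd2, a stretch-response protein of the sarcomere (3.26, SE 0.26), and Myl2 (3.11, SE 0.52). Actn2, an α-actinin that is a list member but is found in all fibre types and so marks none, gave 7685, 8388 and 8439 on the transgenic arrays, against 1844, 2365 and 1516 on the wild-type arrays, with the transgenic arrays level. Tnnc1, slow troponin C, gave 110.5, 141.2 and 846.3 on transgenic 1, 2 and 3, against 92.1, 140.3 and 104.8 on the wild-type arrays, so that here transgenic 3 alone was high. Without array 3 of each genotype, 6 members rose and 0 fell. Pax7, Actn2 and Tnnc1 were chosen after their values were seen, as were the members of the lists below other than the 1 or 2 with the largest change.

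Myh6, the cardiac isoform, stayed dim in both genotypes. Its brighter probe set (1448826_at) gave 19.3, 5.1 and 26.9 on the transgenic arrays, against 18.1, 18.3 and 7.2 on the wild-type arrays, and the other (1417729_at) gave 2.1, 22.7 and 20.5 on the transgenic arrays, against 15.3, 11.1 and 0.8 on the wild-type arrays. Both overlapped and were below the filter. Of 8 cardiac markers 7 had a probe set, their summed signals were 176.6 to 216.4 on the transgenic arrays, against 150.6 to 305.2 on the wild-type arrays, and no single one was above 71.2 on any array.

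Partners of myosin in the thick filament went both ways. Of 17 listed genes 14 were tested, of which 3 rose and 3 fell (limma, with 3 higher and 4 lower at an unadjusted p under 0.05), against 13.4% of all genes called in either direction, and their median was 0.04. Myom3, the M-band protein of slow and IIa fibres, gave 125.7, 137.8 and 150.4 on the transgenic arrays, against 37.9, 44.1 and 7.9 on the wild-type arrays (log2 difference 1.85, limma adjusted p = 0.00524). The wild-type mean of Myom3, 30.0, was below the filter level of 37.7, so this gene was tested through its transgenic signal. Mybpc1, the slow myosin binding protein C, gave 10181, 9615 and 9580 on the transgenic arrays, against 4585, 6289 and 5048 on the wild-type arrays, and Mybph rose too (0.67). Mybpc2, the fast form, gave 16665, 16647 and 15150 on the transgenic arrays, against 19651, 16451 and 14538 on the wild-type arrays, and did not pass (limma adjusted p = 0.814). Mylk2, the kinase that phosphorylates the regulatory light chain, fell by 1.40 (SE 0.11, limma adjusted p = 4.23e-05), at 1246, 1410 and 1305 on the transgenic arrays, against 3437, 3963 and 3148 on the wild-type arrays. Trim63 (MuRF1), a ubiquitin ligase of the M-band that marks thick-filament proteins for breakdown, fell by 0.79, and its relative Trim54 fell by 0.43.

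All 13 fast-fibre contractile genes were tested, of which 0 rose and 2 fell (limma, with 0 higher and 4 lower at an unadjusted p under 0.05), and their median was 0.02. Calls in either direction, 2 of 13, are near the 13.4% over all genes. Both were falls, and 5.75% of all genes were called lower. The 11 that did not pass all had mean signals above 12000, as did both Myh4 probe sets. Of 77 probe sets with a signal of at least 12000, 17 (22.1%) were called, against 11.5% of all tested probe sets. These were 16 higher and 1 lower, and 2 of them were for Myh1. Whether signals that bright respond in full was not tested. The 2 list members that fell were Mylk2 and Myoz3, a Z-disc protein of fast fibres, at 564.6, 472.4 and 551.8 on the transgenic arrays, against 1301, 1375 and 835.5 on the wild-type arrays. The count of falls was 4 after median scaling and 4 after quantile normalization.

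Of 17 factors that fold or assemble myosin, 16 were tested, of which 0 rose and 2 fell (limma, with 2 higher and 4 lower at an unadjusted p under 0.05), and their median was -0.09. Calls in either direction, 2 of 16, are near the 13.4% over all genes. Both were falls, and 5.75% of all genes were called lower. Smyd2, a lysine methyltransferase with Hsp90 among its substrates, gave 1059, 945.6 and 1140 on the transgenic arrays, against 3373, 2742 and 2124 on the wild-type arrays, and fell by 1.36 (SE 0.16). Hsp90aa1, the chaperone itself, fell by 0.45 (limma adjusted p = 0.0436). Unc45b, the myosin-specific co-chaperone, gave 3047, 2998 and 3006 on the transgenic arrays, against 4271, 4156 and 3237 on the wild-type arrays, and did not pass (limma adjusted p = 0.0763). The count of falls was 1 when any one of arrays 1 and 2 of either genotype was left out, 4 without array 3 of each genotype and 5 after median scaling.

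Among 41 regulators of fibre-type myosin transcription 34 were tested, of which 2 rose and 8 fell (limma, with 6 higher and 12 lower at an unadjusted p under 0.05), and their median was -0.12. Over all genes 7.64% were called higher and 5.75% lower. The risers were Ppara, a nuclear receptor of fatty acid metabolism (1.36, SE 0.31), and the coactivator Ppargc1b (0.95, SE 0.15). Sox6, which represses slow genes including Myh7 in fast fibres, gave 1085, 963.8 and 1067 on the transgenic arrays, against 2203, 2192 and 1620 on the wild-type arrays, and fell by 0.93 (SE 0.13, limma adjusted p = 0.00146). Eya1 and Eya4, cofactors of homeobox proteins that drive fast genes, fell by 0.84 and 0.77. Maf, of the large Maf family that drives Myh4 in the mouse, gave 2298, 2546 and 2486 on the transgenic arrays, against 3906, 3456 and 3448 on the wild-type arrays, and fell by 0.56 (SE 0.10). Nfatc2, Mef2c, Pura and Bhlhe41 were the other members that fell, by 0.79, 0.38, 0.39 and 0.88. What the change of any of these regulators does to the myosin genes was not tested. Falls numbered 4 without wild-type 1, transgenic 1 or transgenic 2 and 5 without wild-type 2, and rises 1 without wild-type 2 or transgenic 2.

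The class II heavy chains that are not sarcomeric are Myh9, Myh10 and Myh14 of non-muscle cells and Myh11 of smooth muscle. Of these 4, Myh9 rose (0.54, SE 0.14, limma adjusted p = 0.0296), at 1527, 1307 and 1871 on the transgenic arrays, against 1082, 962.9 and 1148 on the wild-type arrays, and 3 did not pass. Median scaling left 0 risers, as did leaving out wild-type 2, transgenic 1, transgenic 3 or array 3 of each genotype, and leaving out wild-type 3 gave 2 (all limma, with 4 higher at an unadjusted p under 0.05 in the fit reported). The 9 smooth muscle and pericyte markers summed to 12063 to 13779 on the transgenic arrays, against 7544 to 9099 on the wild-type arrays. Most of this sum was Rgs5, at 8607, 8619 and 9094 on the transgenic arrays, against 4786, 5843 and 4921 on the wild-type arrays. Of the 7 tested, 2 were higher (Rgs5 and Kcnj8) and 5 did not pass, with Acta2, Myh11 and Tagln among them. The 8 endothelial markers summed to 4157 to 4570 on the transgenic arrays, against 2447 to 2670 on the wild-type arrays, with 5 of 8 higher. Over all genes tested 7.64% were called higher. The part of these cell types in the rise of Myh9 was not tested.

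**Figure D5:**
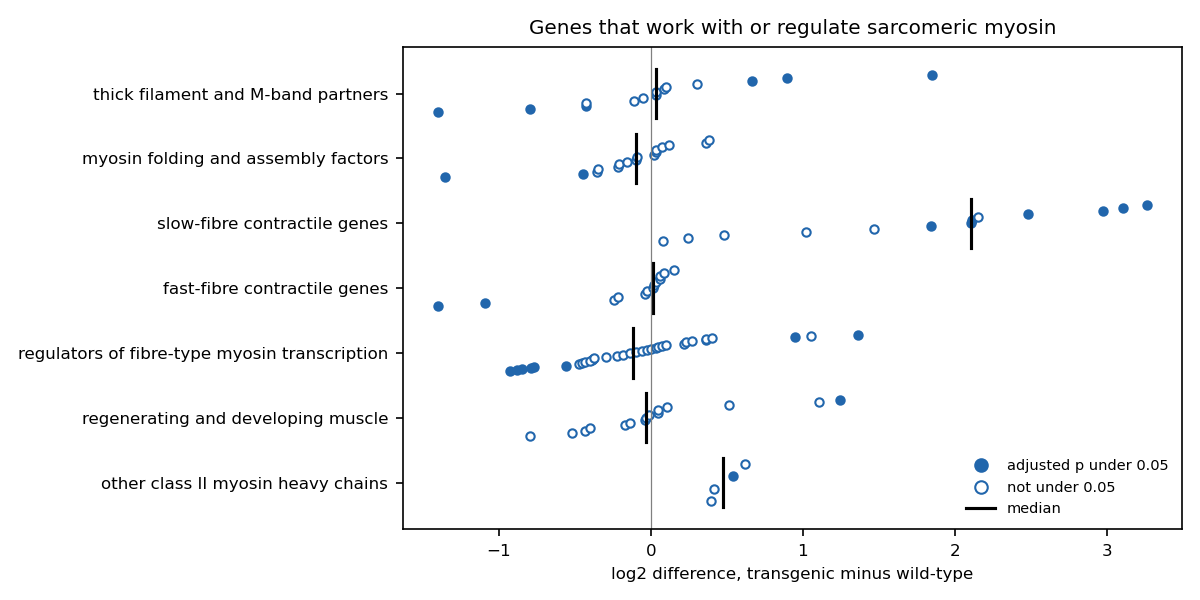
Log2 difference, transgenic minus wild-type, of each tested gene of 7 lists, each gene read by its brightest tested probe set, with filled points at an adjusted p under 0.05 and a bar at each list's median. The slow-fibre list has its median at 2.10 and the other sarcomeric lists near 0.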

How the data were processed

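The authors deposited 1 table of MAS5 signal intensity per probe set on a linear scale, per the labels and the submitters' processing notes, with version and settings not given in the sources used here. Its 6 arrays share a trimmed mean of 200, which is 1 scaling factor per array. From it, log2(signal + 16) was computed with no further normalization, 64 control probe sets were left out, and 27018 probe sets with a mean above the 40th percentile (37.7) were tested with limma 3.58.1 in R 4.3.3 (lmFit, eBayes with an intensity trend, two-sided, Benjamini-Hochberg over all tested probe sets). Nothing tells whether a probe set was detected, and 3 arrays per genotype limit precision.

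The platform annotation names 1 gene for 34945 probe sets, several for 932 and none for 9160. By Entrez identifier, 34741 matched RefSeq (GRCm38.p6) and 0 symbols changed. Lists used each gene's brightest tested probe set. Per list, 2 genes were named, those with the largest change among members that passed or else the smallest p. For Myh2 and Myh7 the 3 genes of closest profile were named. Members, lists and tests were chosen with earlier results of these data known.

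Same-numbered arrays of the genotypes did not deviate together (correlations of 0.07, -0.08 and -0.02), and the labels state no pairing. The arrays were therefore fitted as unpaired, although these correlations cannot exclude a pairing. Alternatives changed the constant, the filter, the scaling, the variance model, the weights of arrays and the replicate block, or left out each array in turn. The fit without array 3 of each genotype was chosen after seeing the data. Promoter letters were searched and figures made in Python 3.11.15 with matplotlib 3.10.9.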

Additional observations from a re-analysis of the deposited data

Results flagged for a closer look

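The platform annotation gives 2 probe sets to Myh7 and Myh6 together, and they were counted for neither gene, although the brighter one is among the 27018 tested probe sets. The brighter of them (1448554_s_at) gave 17.1, 15.3 and 345.3 on transgenic 1, 2 and 3, against 5.6, 44.2 and 4.7 on the wild-type arrays. It stands out because the signal of 345.3 on transgenic 3, the array with the highest Myh7 signal, was above every wild-type array in a probe set left out of the myosin values. Signals of the genotypes overlapped and the probe set did not pass (limma adjusted p = 0.386). Which of the genes it read was not tested.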

How the results depend on the processing

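The calls for Myh2, Myh8 and the 3 Myh1 probe sets passed in all 17 alternatives run. Myh7 passed in 3 of its 16, without transgenic 1, with 1 unit added and with the replicate block (adjusted p = 0.0243), and Myh4 in 1, its dimmer probe set after quantile normalization. Counts of changed, higher and lower probe sets were 3115, 1721 and 1394 as reported, 2741, 1518 and 1223 with the replicate block, and 1580, 948 and 632 without the intensity trend. With an array left out they ran from 1709 to 3300, 1031 to 1786 and 678 to 1514. Median scaling gave 973 higher and 2399 lower, which moves the share of calls that are higher from 55.2% as deposited to 28.9%. After quantile normalization 2 myosin probe sets were lower.

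Among the lists, folding factors had 1 riser with the mean of tested probe sets, and 1 fall without the filter, 5 after median scaling and 4 without array 3 of each genotype (1 to 3 with an array left out). Fast-fibre falls were 4 after median scaling and 4 after quantile normalization. Regulators had 1 to 3 risers and 4 to 9 falls with an array left out. Developing muscle had 2 risers with 1 unit added and 2 without the filter (1 to 2 with an array left out), and 1 fall after median scaling and 1 with mean probe sets. Other class II myosins had 0 risers without the filter, after median scaling and without array 3 of each genotype (0 to 2 with an array left out). With mean probe sets, Myh2 to Myh1 was 1.51 and Myh1 to Myh4 1.17. The causes were not tested. The probe sets near the filter, for Myh3, Myh6, Myh7b and Myh8, limit what can be resolved.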
